A study of Mus musculus with 5 samples.

Results

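The genes described here encode nuclear subunits of the mitochondrial respiratory chain, the complexes I to IV of the inner mitochondrial membrane, together with the electron carrier cytochrome c. They were listed by symbol, 48 in all, and 46 of the 18193 genes measured carried one of these symbols. Ndufs6 was left out because its only probe set is annotated to several symbols, and Cox7b was not analysed here. A probe set is a group of array probes designed for one transcript, and the value of a gene is the mean of its probe sets that are annotated to exactly 1 symbol.

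Gene expression was measured on Affymetrix arrays, 1 per sample, in brain dendritic cells (DCs, 2 arrays) and bone marrow monocytes (3 arrays). The brain DCs are Lin-CD45hiCD11c+ cells sorted from brains of mice that carried a B16-Flt3L tumour for 12 days, from cells injected under the skin. B16 is a mouse melanoma line, here one that makes Flt3 ligand, a growth factor of dendritic cells. The monocytes are SSCloCD11bhi CD115+ cells from bone marrow, and no treatment is labelled for them. Microglia and spleen DCs, which the series also names, are not analysed here. All 5 samples are labelled as C57BL/6, female and 6 to 8 weeks old, and the labels do not say whether a sample is one mouse or a pool. Cell type, organ and tumour treatment separate the groups in the same way and cannot be told apart. Separate animals are not stated, so each p-value covers the spread of these samples alone, and that spread may be technical.

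The respiratory chain passes electrons from NADH, through complex I, and from succinate, through complex II, to ubiquinone. Complex III hands them to cytochrome c, and complex IV passes them to oxygen. Complexes I, III and IV pump protons, and ATP synthase uses the gradient to make ATP. Most subunits are encoded in the nucleus and imported, and a few are encoded by mitochondrial DNA. In dendritic cells and monocytes the balance between respiration and glycolysis is known to shift with activation.

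The values are on a log2 scale and centred on a baseline per probe set. They show differences between arrays and carry no absolute level, so genes cannot be ranked by level. For the same reason, the probe set of highest mean, used below as an alternative, need not be the one with the most signal. Each difference is brain DC minus monocyte (n = 2 and n = 3 arrays), and its SE comes from limma. A gene was called at a Benjamini-Hochberg adjusted p under 0.05 over all genes. The small number of arrays limits the precision: the smallest two-sided p that exact permutation of 5 arrays allows here is 0.1. In bulk RNA, fewer cells of a type and less RNA per cell cannot be told apart.

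Several measures of the arrays differed between the groups before any respiratory chain gene is considered. All 9 dendritic cell markers were higher on the brain DC arrays and all 6 measured monocyte markers were lower. These lists include Itgax (CD11c), Itgam (CD11b) and Csf1r (CD115), whose proteins were used for sorting, so their direction is not independent of the sorting. Xist, which female cells transcribe, was 49.1-fold higher on the brain DC arrays, and the Y-linked genes Kdm5d, Uty and Eif2s3y were 2.13-fold, 1.89-fold and 1.54-fold lower there. The 3 monocyte arrays thus go against their female label, and since all 3 do, no result can be given without them. Xist stood at -0.30 and -0.52 in brain DCs, against -5.86, -6.02 and -6.21 in monocytes. Eif2s3y stood at 3.34 and 2.93 in brain DCs, against 3.75, 3.93 and 3.58 in monocytes. Whether the brain DC arrays bear out the female label cannot be read from centred values. The probe sets of Kdm5d disagreed, from -3.29 to 0.30. The 24 probe sets of poly-A spike-in RNA, which is added during labelling, were all higher on the brain DC arrays (median difference 2.59), as were the 18 hybridisation controls (median difference 1.04). The 5′ minus 3′ difference of the Gapdh control probe sets was 0.34 and 0.22 on the brain DC arrays, against -2.78, -2.86 and -2.28 on the monocyte arrays. For beta-actin it was 0.16 and 0.31 on the brain DC arrays, against -3.99, -3.98 and -1.60 on the monocyte arrays. For the transferrin receptor and pyruvate carboxylase controls the group means of this measure differed by 0.10 and 0.21. These measures move with the comparison, and their part in the results below was not tested.

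Respiratory chain genes were mostly higher in brain DCs. Of the 46 genes, 24 rose, 2 fell and 20 were not called. Among all genes, 16.9% were called higher and 16.9% lower, so 33.8% were called in either direction, while 52.2% of the respiratory chain genes rose. The median difference was 0.48 over the 46 genes and 0.09 over all genes. Of the 46 genes, 7 rose at least 2-fold, against 6.04% of all genes. Brain DC arrays lay entirely above monocyte arrays for 31 of the 46 genes, against 35.1% of all genes, and entirely below them for 6, against 25% of all genes. The count of 24 became 13 without brain DC replicate 1, where 12.9% of all genes were called higher, and lay between 19 and 25 without any other single array. With 1 array left out, 1 or 2 genes were called lower. Of the 2 that fell, Ndufs1 was called in every such fit and Ndufa8 only in that without monocyte replicate 2.

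The median over the 46 genes on each array was 0.67 and 0.53 in brain DCs, against 0.05, 0.04 and 0.04 in monocytes. The median over all genes stayed between -0.07 and 0.01 on the same 5 arrays. Among the 24 genes that rose, brain DC replicate 1 was the higher of the pair in 20 and monocyte replicate 2 the lowest of its group in 18. The typical spread within a group was like that of other genes, with a median SD of 0.15 between brain DC arrays and 0.15 between monocyte arrays, against 0.14 for all genes in both groups.

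**Figure D1:**
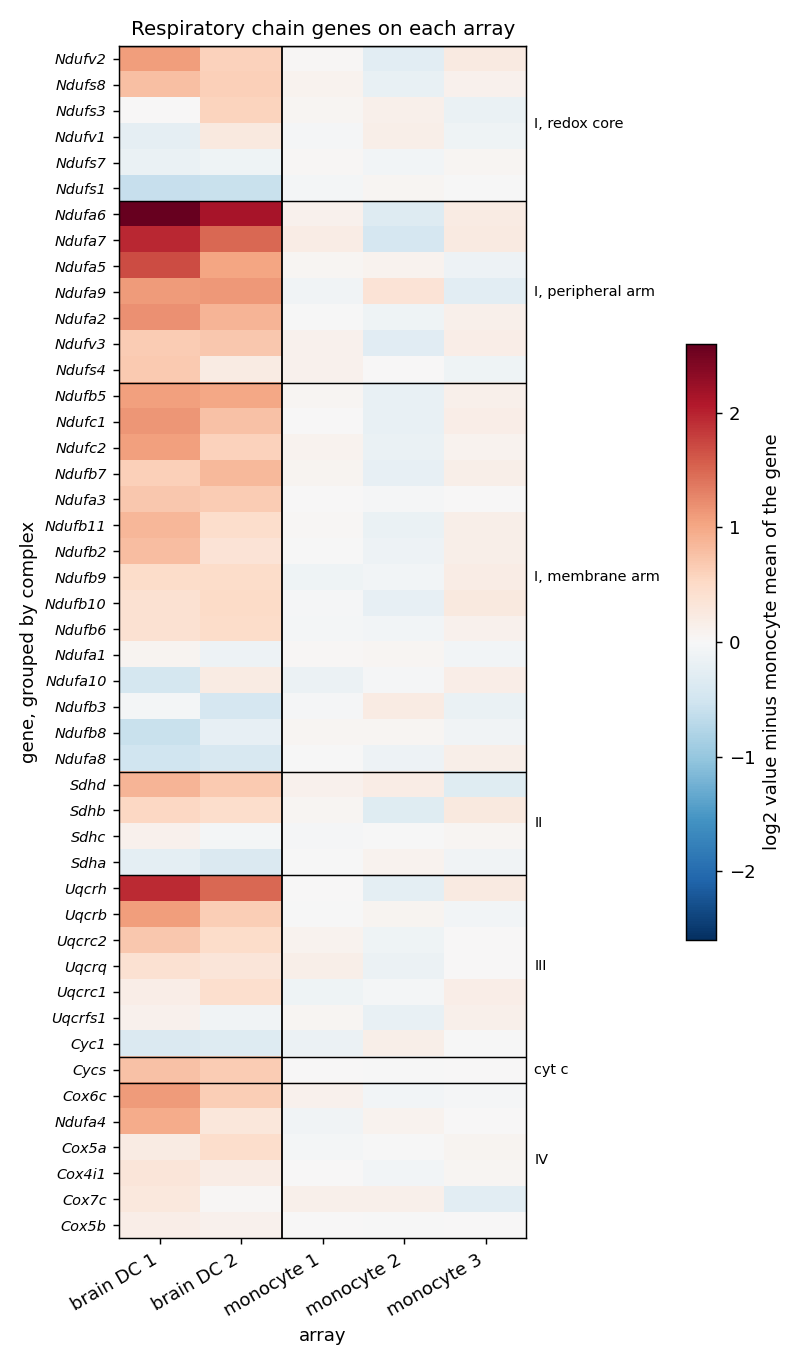
Log2 value of each of the 46 respiratory chain genes (rows, grouped by complex) on each array (columns), minus the monocyte mean of that gene; red is higher and blue lower. The 2 brain DC columns are red for most genes, most of all for Ndufa6, Ndufa7 and Uqcrh, and blue for Ndufs1 and Ndufa8.

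Promoters are shown for Ndufa6, Uqcrh and Ndufa5, those with a motif match among the searched genes with the largest rise. The motifs were those of Nrf1 and GABP, factors known to act on respiratory chain genes. RefSeq promoter windows of GRCm38.p6, from 250 bases before to 50 bases after the gene start, were found for 36 of the 46 genes. Each line gives the 250 bases before the start, with matches to either motif in capitals.
Ndufa6 promoter, chr15:82354292-82354541, minus strand: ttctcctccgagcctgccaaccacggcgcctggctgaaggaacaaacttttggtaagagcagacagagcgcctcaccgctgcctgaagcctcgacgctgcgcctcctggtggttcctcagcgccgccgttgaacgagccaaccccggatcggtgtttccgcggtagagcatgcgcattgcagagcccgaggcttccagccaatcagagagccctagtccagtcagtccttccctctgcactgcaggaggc
Uqcrh promoter, chr4:116075071-116075320, minus strand: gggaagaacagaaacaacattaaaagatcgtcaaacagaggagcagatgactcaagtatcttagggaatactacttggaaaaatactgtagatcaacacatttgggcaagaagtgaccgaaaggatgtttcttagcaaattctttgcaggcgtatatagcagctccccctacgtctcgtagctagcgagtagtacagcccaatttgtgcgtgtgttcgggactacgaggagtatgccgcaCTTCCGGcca
Ndufa5 promoter, chr6:24527691-24527940, minus strand: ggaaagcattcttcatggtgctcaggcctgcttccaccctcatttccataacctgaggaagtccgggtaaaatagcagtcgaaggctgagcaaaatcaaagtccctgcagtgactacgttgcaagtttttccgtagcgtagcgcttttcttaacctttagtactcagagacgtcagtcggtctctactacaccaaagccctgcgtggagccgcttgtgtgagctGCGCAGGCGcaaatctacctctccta
The first motif, GCGCANGCG for Nrf1, and the second, CCGGAAG for GABP, were searched on both strands. A match to one is never by itself a match to the other. The capitals of Ndufa5 match the first motif and those of Uqcrh match the second, read on the opposite strand. The match of Ndufa6 to the first motif lies after the gene start and is not printed. Ndufa7, Ndufa9 and Ndufb5, which also rose at least 2-fold, held neither motif in their windows. Their absence there is a statement on letters only.

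The Nrf1 motif was present in 8 of 36 respiratory chain promoters (22.2%), against 11.4% of the 14452 genes tested that had a promoter and 6.25% of all 32851 windows. By call, it was present in 4 of 19 genes that rose (Ndufa6, Ndufa5, Sdhd and Cycs) and 3 of 16 that were not called, and it was also present in Ndufa8, which fell. The Nrf1 motif first searched had 1 more base, a C at its end, and was present in 6 of 36 promoters (16.7%), against 8.61% of the genes tested. The GABP motif was present in 7 of 36 promoters (19.4%), against 15% of the genes tested and 8.86% of all windows. It was present in 5 of 19 genes that rose (Uqcrh, Sdhd, Ndufb7, Ndufs8 and Ndufb6) and 2 of 16 that were not called. Sdhd held both. These matches are descriptions of letters in a window.

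Complex I, the NADH dehydrogenase, has an L shape with a matrix arm that carries the redox centres and a membrane arm that pumps protons. Of its 28 measured genes 17 rose, 2 fell and 9 were not called. They did not move as a block: the accessory subunits of the matrix arm had a median of 1.11, those of the membrane arm 0.48 and the redox core 0.15.

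The redox core holds the flavin and the iron-sulfur clusters. Of its 6 measured genes, 2 rose (33.3%), 1 fell (16.7%) and 3 were not called, against 16.9% higher and 16.9% lower among all genes. Ndufv2, which carries an iron-sulfur cluster close to the flavin, had 1.11 and 0.63 in brain DCs, against 0.06, -0.24 and 0.27 in monocytes. It rose 1.79-fold (0.84 ± 0.20 SE, limma adjusted p = 0.0164). The groups were apart by a smaller step than the gap between both brain DC arrays. Ndufs8, which also binds iron-sulfur clusters, had 0.70 and 0.54 in brain DCs, against 0.02, -0.28 and 0.02 in monocytes. Its rise was 1.63-fold (0.70 ± 0.15 SE, limma adjusted p = 0.00901), with groups that did not overlap. Without brain DC replicate 1 neither was called, so 0 core genes rose (limma adjusted p = 0.0957 for Ndufv2 and 0.0506 for Ndufs8). Ndufv2 was also not called when read from its probe set of highest mean.

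Ndufs1, the largest subunit of the complex and a carrier of iron-sulfur clusters, moved the other way. Its values were -0.11 and -0.10 in brain DCs, against 0.43, 0.54 and 0.48 in monocytes. It fell 1.50-fold (-0.59 ± 0.12 SE, limma adjusted p = 0.00772), and the call held whichever array was left out (limma adjusted p up to 0.0328). Ndufv1, which binds NADH and the flavin, was nearest to 0. It had 0.09 and 0.57 in brain DCs, against 0.28, 0.46 and 0.21 in monocytes, and the groups overlapped. Ndufs3 and Ndufs7, with 0.29 and -0.14, were not called.

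The accessory subunits of the matrix arm, which surround the redox core without carrying its centres, held the largest differences. Of the 7 measured genes 6 rose, 0 fell and 1, Ndufs4, was not called. Ndufa6 had 2.01 and 1.40 in brain DCs, against -0.63, -1.06 and -0.52 in monocytes. It rose 5.44-fold (2.44 ± 0.23 SE, limma adjusted p = 2.47e-04), the largest difference of the 46 genes. Both brain DC arrays stood far above every monocyte array. Ndufa7 had 1.08 and 0.60 in brain DCs, against -0.69, -1.34 and -0.65 in monocytes. Its rise was 3.32-fold (1.73 ± 0.24 SE, limma adjusted p = 0.00154), and its 5 probe sets lay between 1.32 and 2.13.

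Ndufa5 had 1.50 and 0.82 in brain DCs, against -0.15, -0.12 and -0.33 in monocytes, a rise of 2.57-fold (1.36 ± 0.20 SE, limma adjusted p = 0.00205). Brain DC replicate 1 was the higher of the pair, yet both stood clear of the monocytes. Ndufa9, a subunit at the junction of both arms, had 1.19 and 1.21 in brain DCs, against 0.00, 0.45 and -0.18 in monocytes. It rose 2.16-fold (1.11 ± 0.19 SE, limma adjusted p = 0.0039). These 4 genes were called without any 1 of the 5 arrays. Ndufa2 and Ndufv3 also rose, by 1.04 and 0.68, and Ndufv3 was not called when either brain DC array was left out. Ndufs4, which assembly of the NADH-binding end requires, had 1.23 and 0.78 in brain DCs, against 0.66, 0.56 and 0.45 in monocytes. Its groups did not overlap, but it was not called (0.45 ± 0.17 SE, limma adjusted p = 0.0769). Its 4 probe sets ran from -0.18 to 0.81, with 2 called higher. The gene itself was called without brain DC replicate 2 (0.67, limma adjusted p = 0.0229), after quantile normalisation and from its probe set of highest mean.

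Accessory subunits of the membrane arm were more mixed, with 9 of 15 higher, 1 lower and 5 not called. Without brain DC replicate 1, 4 of them were higher, and without monocyte replicate 1 or monocyte replicate 2, 5 were. Ndufb5 had 0.90 and 0.84 in brain DCs, against -0.12, -0.36 and -0.03 in monocytes. It rose 2.05-fold (1.04 ± 0.14 SE, limma adjusted p = 0.00131). Ndufc1 had 0.98 and 0.59 in brain DCs, against -0.16, -0.36 and 0.01 in monocytes, a rise of 1.94-fold (0.96 ± 0.17 SE, limma adjusted p = 0.00458). Both genes had groups well apart, with all probe sets called higher. Ndufc2 had 0.72 and 0.25 in brain DCs, against -0.26, -0.52 and -0.26 in monocytes, and rose 1.78-fold (0.83 ± 0.18 SE, limma adjusted p = 0.00941). Ndufc2 missed the threshold once brain DC replicate 1 was left out (limma adjusted p = 0.0503).

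Ndufb7 had 0.50 and 0.72 in brain DCs, against -0.06, -0.34 and 0.02 in monocytes, a rise of 1.66-fold (0.73 ± 0.16 SE, limma adjusted p = 0.00957). Its probe sets did not move together, one standing at 1.51 and the other at -0.04, so the gene value rests on 1 of them. Without brain DC replicate 2 its adjusted p was 0.0525 by limma. The other members of this arm that rose were Ndufa3, Ndufb11, Ndufb2, Ndufb9 and Ndufb6, with differences from 0.43 to 0.68. Of these, Ndufa3 was called in each fit with 1 array left out, and the remaining 4 were not called without the first brain DC array, nor without the first or the second monocyte array, nor, for Ndufb6 and Ndufb9, without brain DC replicate 2. Ndufa10, Ndufb3, Ndufb8 and Ndufb10 were not called, at -0.12, -0.24, -0.39 and 0.45. Ndufb8 was called lower without brain DC replicate 2 and Ndufb10 higher without monocyte replicate 3. Ndufa8, which sits on the intermembrane side, had -0.07 and 0.04 in brain DCs, against 0.45, 0.32 and 0.61 in monocytes. It fell 1.39-fold (-0.47 ± 0.14 SE, limma adjusted p = 0.0339), but the call was lost without each array other than monocyte replicate 2 (limma adjusted p from 0.0655 to 0.132). Ndufa1, required for assembly of the membrane arm, was nearest to 0, with 0.73 and 0.52 in brain DCs, against 0.69, 0.70 and 0.58 in monocytes. Ndufa1 and Ndufb11 are the X-linked members. Without them 23 of 44 genes were higher and 2 lower.

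**Figure D2:**
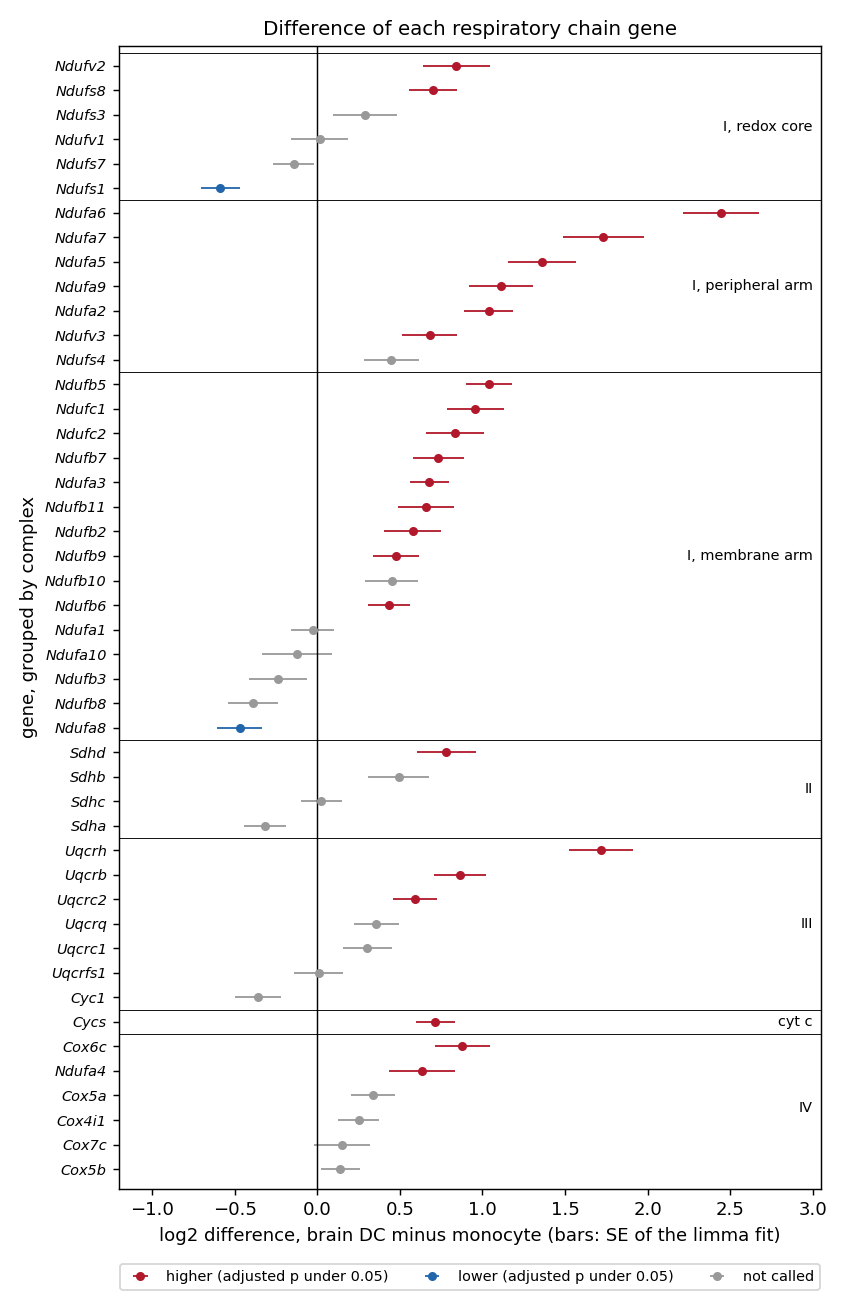
Log2 difference, brain DC minus monocyte, of the 46 genes (points) with the SE of the limma fit (bars), grouped by complex; red points were called higher, blue points lower and grey points were not called. The matrix arm accessory genes reach furthest to the right, up to 2.44, and Ndufs1 and Ndufa8 are the blue points.

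Complex II, succinate dehydrogenase, links the tricarboxylic acid (TCA) cycle to the chain. Of its 4 genes 1 rose (25%, against 16.9% of all genes). Sdhd, a membrane anchor, had 0.85 and 0.66 in brain DCs, against 0.10, 0.17 and -0.33 in monocytes. It rose 1.72-fold (0.78 ± 0.18 SE, limma adjusted p = 0.0129), but it missed the threshold when brain DC replicate 1 was left out (limma adjusted p = 0.0716), leaving 0 genes of complex II. Without probe sets that can share probes with other transcripts, Sdhd stood at 0.54 (limma adjusted p = 0.111), and it was also not called when read from its probe set of highest mean. Sdhb, the iron-sulfur subunit, had 0.79 and 0.71 in brain DCs, against 0.31, -0.06 and 0.52 in monocytes, and was not called (0.49 ± 0.18 SE, limma adjusted p = 0.0755). It was called without monocyte replicate 3 (0.62, limma adjusted p = 0.0433) and after quantile normalisation.

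Sdhc, the other anchor, had -0.20 and -0.37 in brain DCs, against -0.35, -0.32 and -0.27 in monocytes. Its groups overlapped, and the difference was 0.02 ± 0.12 SE. Sdha, the flavin subunit that oxidises succinate, had -0.11 and -0.22 in brain DCs, against 0.15, 0.24 and 0.06 in monocytes. Its brain DC arrays lay below all monocyte arrays, yet it was not called (-0.32 ± 0.13 SE, limma adjusted p = 0.0924). The 4 probe sets of Sdha ran from -0.63 to 0.18, and none was called when tested singly. The gene values of Sdha and the anchor Sdhd lay on opposite sides of 0, with only Sdhd called.

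Complex III, the cytochrome bc1 complex, had 3 of 7 genes higher (42.9%, against 16.9% of all genes), 0 lower and 4 not called. Uqcrh, the hinge subunit that links cytochrome c1 and cytochrome c, had 0.94 and 0.51 in brain DCs, against -0.98, -1.24 and -0.76 in monocytes. It rose 3.29-fold (1.72 ± 0.19 SE, limma adjusted p = 5.45e-04), with both probe sets called, at 1.33 and 2.10. Uqcrb, which lies near the quinone site, had 1.05 and 0.62 in brain DCs, against -0.03, 0.05 and -0.11 in monocytes, a rise of 1.82-fold (0.86 ± 0.16 SE, limma adjusted p = 0.00503). Uqcrc2, a core protein without redox centres, had 0.91 and 0.70 in brain DCs, against 0.31, 0.11 and 0.22 in monocytes. It rose 1.51-fold (0.59 ± 0.13 SE, limma adjusted p = 0.0129) but was not called when brain DC replicate 1 was left out (limma adjusted p = 0.0683) or when read from its probe set of highest mean (0.39, limma adjusted p = 0.131). Uqcrc1, the other core protein gene, and Uqcrq, a small accessory subunit gene, stood at 0.30 and 0.36 and were not called, although the groups did not overlap for Uqcrq. Neither were the genes of the electron-carrying subunits called. The Rieske protein gene Uqcrfs1, nearest to 0, had 0.64 and 0.44 in brain DCs, against 0.57, 0.35 and 0.67 in monocytes, and Cyc1, the cytochrome c1 gene, stood at -0.36 ± 0.14 SE (limma adjusted p = 0.0852).

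Cytochrome c carries electrons from complex III to complex IV and, once released to the cytosol, triggers caspase activation. Its somatic gene Cycs had 0.94 and 0.83 in brain DCs, against 0.18, 0.16 and 0.17 in monocytes. It rose 1.64-fold (0.71 ± 0.12 SE, limma adjusted p = 0.00327), and the call held without any 1 of the 5 arrays. Replicates lay close together and groups were clearly apart. Of its 4 probe sets 3 were called higher, at 0.64, 1.07 and 1.58, and 1 stood at -0.44 and was not called. The testis form, Cyct, was not called (0.36).

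In complex IV, cytochrome c oxidase, 2 of 6 genes rose (33.3%, against 16.9% of all genes), 0 fell and 4 were not called. Cox6c had 1.12 and 0.65 in brain DCs, against 0.11, -0.05 and -0.03 in monocytes, a rise of 1.84-fold (0.88 ± 0.17 SE, limma adjusted p = 0.00574). Its 2 probe sets stood at 0.86 and 0.90. Ndufa4, named for complex I but now known as a subunit of complex IV, had 0.87 and 0.21 in brain DCs, against -0.18, -0.01 and -0.08 in monocytes. It rose 1.55-fold (0.63 ± 0.20 SE, limma adjusted p = 0.0445). That call rested on brain DC replicate 1, without which the difference was 0.30 (limma adjusted p = 0.21). It was also lost when any 1 of the monocyte arrays was left out and after median subtraction or quantile normalisation, each of which left 1 complex IV gene called. Cox5b was nearest to 0, with 0.36 and 0.32 in brain DCs, against 0.20, 0.20 and 0.20 in monocytes (0.14 ± 0.12 SE). Its 6 probe sets ran from -0.36 to 0.70, 1 of them called higher. Cox4i1, Cox5a and Cox7c stood between 0.15 and 0.33 and were not called.

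Probe sets of 1 gene did not always move alike. Of the 30 genes with several probe sets, 17 had all of them on one side of 0 and 13 had them on both sides. Of the 24 genes that rose, 4 were of the second kind, namely Ndufb7, Ndufb2, Ndufb9 and Cycs. Of all 104 probe sets 83 had a positive difference (79.8%), against 55.5% of all 34945 probe sets. Among them 18 _x_at and 7 _s_at probe sets can share probes with other transcripts, and without these 21 of 45 genes rose. Tested singly, 46 were called higher (44.2%) and 2 lower (1.92%), against 13.5% higher and 16.8% lower among all probe sets. No gene had probe sets called in both directions (0 genes). One of the lower probe sets belongs to Ndufb8 (-0.97), whose other probe set stood at 0.19. The other is the only probe set of Ndufs1. Ndufa8 also rests on 1 probe set, which was not called when probe sets were tested singly (limma adjusted p = 0.0629).

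**Figure D3:**
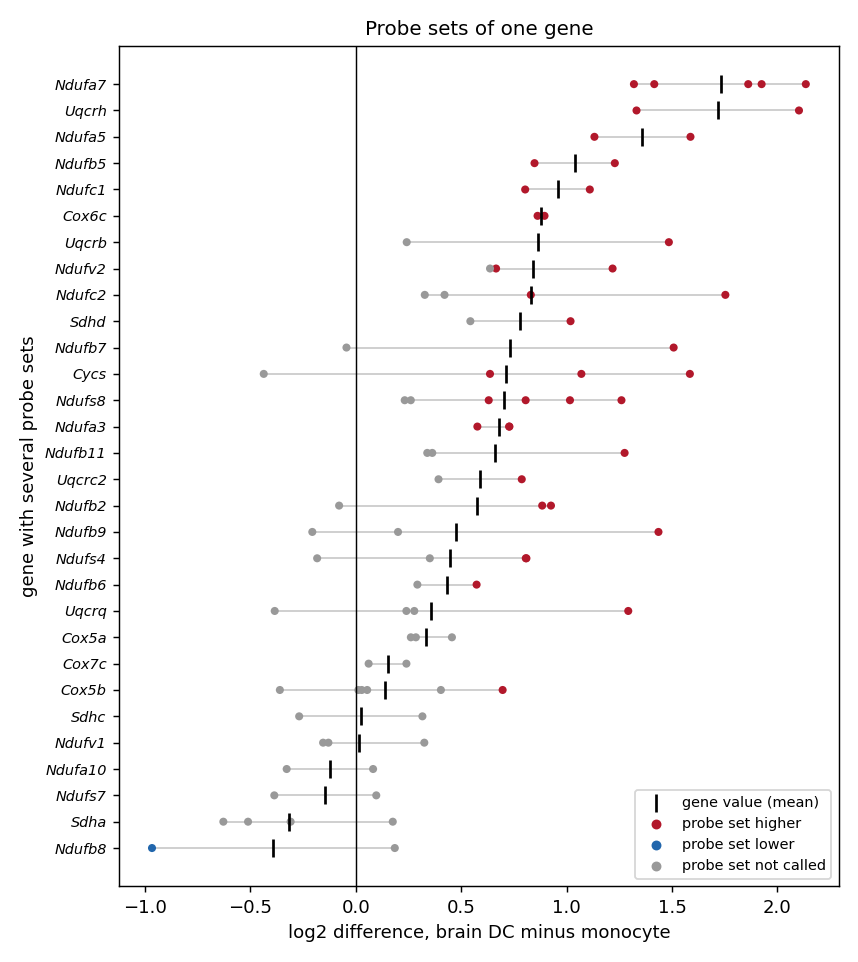
Log2 difference, brain DC minus monocyte, of every probe set (points) of the 30 genes with several probe sets, with the gene value as a black bar; red probe sets were called higher, blue lower and grey not called. The probe sets of Ndufa7, Uqcrh and Ndufa5 are all red, while those of Cycs, Ndufb9 and Uqcrq straddle 0.

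Other genes of mitochondrial energy metabolism were taken from lists by function. Among 13 measured subunits of complexes I, III and IV outside the 46 genes, 9 were higher (69.2%) and 4 not called (0 lower). Their median was 0.91, and 16.9% of all genes were called higher. Uqcr11 and Uqcr10, small subunits of complex III, rose by 1.61 ± 0.18 SE and 1.47 ± 0.20 SE. ATP synthase had 10 of 15 genes higher (66.7%), 1 lower and 4 not called, with a median of 0.69. Atp5e, its epsilon subunit, rose 5.61-fold (2.49 ± 0.22 SE) and Atp5l, its g subunit, 4.30-fold (2.11 ± 0.25 SE). Atp5c1, the gamma subunit of the rotor, fell 2.14-fold (-1.10 ± 0.13 SE), but its 2 probe sets stood far apart, at -2.09 and -0.11. Of 9 tissue-restricted or testis isoforms 0 were called by limma at the threshold, with differences from -0.40 to 0.47, while 2 were called higher without brain DC replicate 2. Of the genes of mitochondrial DNA only ND5 was measured with 1 symbol, and it was not called (0.17 ± 0.17 SE).

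Assembly factors differed by gene. For complex I, 5 of 13 were higher (38.5%), 2 lower (15.4%) and 6 not called, against 16.9% higher and 16.9% lower among all genes. Ndufaf6 (2.05) and Nubpl (1.86), an iron-sulfur delivery protein, were higher, and Foxred1 (-1.32) and Ndufaf7 (-0.83) were lower. For complexes II to IV, 7 of 24 were higher (29.2%), 2 lower (8.33%) and 15 not called. The share called lower was close to that of all genes for complex I and below it for complexes II to IV, on 2 genes in each list. Coa3 (1.30) and Uqcc2 (1.27) were higher, and the copper chaperone gene Sco1 (-1.61) and the heme A synthase gene Cox15 (-0.87) were lower. Without brain DC replicate 1, Cox15 was not called.

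Mitochondrial ribosomal proteins had 34 of 73 genes higher (46.6%) and 5 lower (6.85%), with a median of 0.47. Among all genes, 16.9% were called higher and 16.9% lower. Mrps28 (1.86) and Mrpl12 (1.81) were higher, and Mrpl33 (-0.95) and Mrpl10 (-0.74) were lower. Mrpl10 was not called without the first brain DC array or without the second or the third monocyte array. The 5 lower genes became 2 without brain DC replicate 1 and 3 without any 1 of the monocyte arrays. Import genes had 10 of 21 higher (47.6%) and 0 lower, including the small chaperone gene Timm13 (1.88) and the chaperonin gene Hspe1 (1.73). Of 17 TCA cycle genes 4 were higher (23.5%) and 1 lower (5.88%), against 16.9% in each direction among all genes. Their median was 0.093, against 0.0853 over all genes. Fh1 (0.58) and Suclg1 (0.51) were higher, Suclg1 losing its call in 4 of the 5 fits with 1 array left out, and Ogdh, the E1 subunit of 2-oxoglutarate dehydrogenase, was lower (-1.44). Leaving out brain DC replicate 2 or any 1 of the monocyte arrays left 1 or 2 TCA cycle genes higher. Of 12 carriers and alternative electron entry genes 4 were higher, including Gpd2, the mitochondrial glycerol-3-phosphate dehydrogenase (1.52), and the ADP/ATP carrier gene Slc25a4 (0.70), and 2 were higher without brain DC replicate 2.

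Genes that express mitochondrial DNA or regulate mitochondrial biogenesis stood on the other side. Of 21 measured, limma called 11 lower (52.4%, against 16.9% of all genes) and 0 higher, and the median was -0.40. The 11 lower genes became 6 without brain DC replicate 1, brain DC replicate 2 or monocyte replicate 1, and 7 without monocyte replicate 2, and 1 was higher without brain DC replicate 2. The largest decreases were in Mterf1a, a mitochondrial transcription termination factor (-1.70 ± 0.39 SE), and Ppargc1b, a coactivator of mitochondrial biogenesis (-1.48 ± 0.13 SE). Mterf1a was not called when brain DC replicate 1 was left out. Gabpa, the DNA-binding subunit of GABP (nuclear respiratory factor 2), which is known to act on respiratory chain promoters, had -0.26 and -0.16 in brain DCs, against 0.84, 1.00 and 0.92 in monocytes. Its motif is the second of those searched in the promoters, as in Uqcrh. Gabpa fell 2.19-fold (-1.13 ± 0.12 SE, limma adjusted p = 5.11e-04).

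Nrf1, nuclear respiratory factor 1, whose motif stands in the promoter of Ndufa5, had 0.15 and 0.23 in brain DCs, against 0.78, 1.12 and 0.59 in monocytes. It fell 1.56-fold (-0.64 ± 0.17 SE, limma adjusted p = 0.026), but in 4 of the 5 fits with 1 array left out, all but that without monocyte replicate 3, it was not called (limma adjusted p from 0.0519 to 0.105). Gabpb1, the partner of Gabpa, fell 1.56-fold (-0.64 ± 0.16 SE, limma adjusted p = 0.0205), with probe sets that disagreed. It was not called when brain DC replicate 2 or monocyte replicate 2 was left out. Tfam, the packaging and transcription factor of mitochondrial DNA, was not called (-0.40 ± 0.16 SE, limma adjusted p = 0.099) but was called without brain DC replicate 1 (-0.61, limma adjusted p = 0.0378). Ppargc1a, a better known coactivator related to Ppargc1b, was not called (0.13). Among the named factors, Nrf1, Gabpa and Gabpb1 were chosen after their values were seen, as were Tfam and Ppargc1a.

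**Figure D4:**
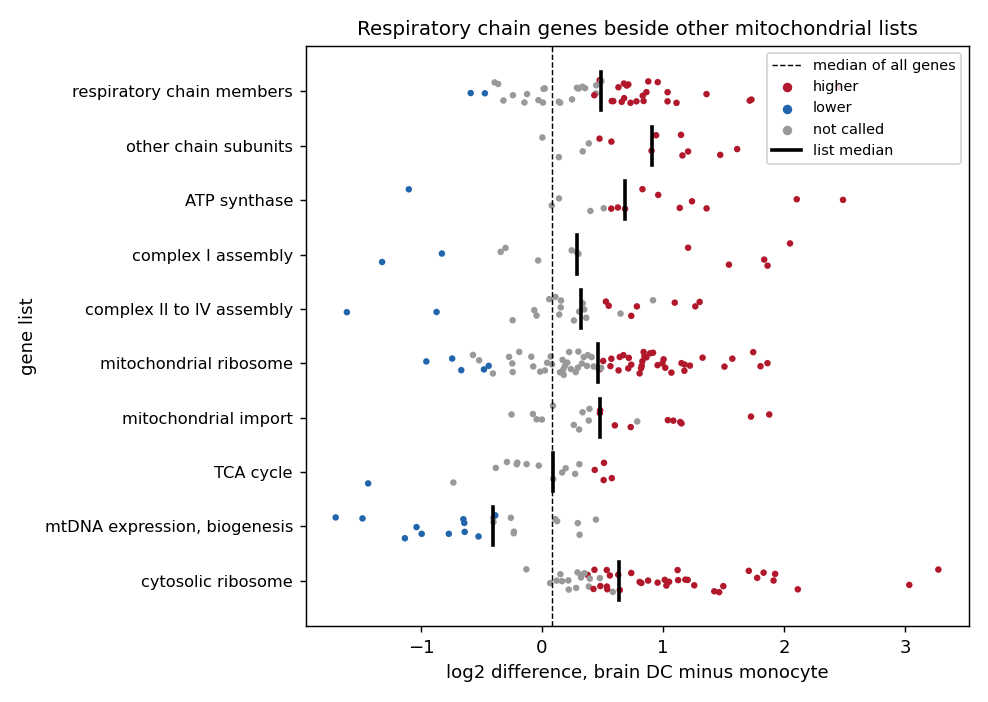
Log2 difference, brain DC minus monocyte, of each gene (points) of the 46 respiratory chain genes and of 9 other lists, with the list median as a black bar and the median of all genes as a dashed line. Chain subunits, ATP synthase, import and both ribosomes lie mostly to the right of the dashed line, the median of the TCA cycle list is close to it and that of the mtDNA expression and biogenesis list is to its left.

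Cytosolic ribosomal protein genes, a list chosen after values were seen, moved the same way as the chain, with a median of 0.64. Of 50 genes, 16 were not called, 0 were lower and 34 were higher (68%, against 16.9% of all genes). That count became 22 without brain DC replicate 1. Markers of other cells also differed between the groups. All 7 measured microglia markers were higher in brain DCs, where their mean lay between 1.22 and 1.49, against -0.86 to -0.64 in monocytes. Of 5 choroid plexus markers 2 were higher, Ttr by 7.22 and Clic6 by 0.67, with a list mean of 1.45 to 1.68 in brain DCs, against -0.32 to -0.18 in monocytes. Of 6 markers of NK, T and B cells 3 were higher, Klrd1 by 6.29, Gzma by 2.75 and Cd3d by 0.45. The list mean was 0.71 to 1.00 in brain DCs, mostly from Klrd1 and Gzma, against -0.81 to -0.69 in monocytes. Of 4 endothelial markers Cldn5 (2.56) and Pecam1 (0.59) were higher. The list mean was 0.31 to 0.65 in brain DCs, mostly from Cldn5, against -0.30 to -0.27 in monocytes. The astrocyte list had 1 of 5 higher, Aldoc (2.61). Its mean was 0.50 to 0.61 in brain DCs, mostly from Aldoc (2.17 and 2.98), against -0.15 to -0.12 in monocytes. The neutrophil list had 1 of 6 higher, S100a9 (1.41), with a mean of 1.73 to 2.16 in brain DCs, against 0.31 to 1.59 in monocytes. Mag, 1 of 4 oligodendrocyte markers, and Alas2, 1 of 3 erythroid markers, were higher by 0.49 and 0.79. Limma called 0 of 5 neuronal and 0 of 5 melanoma markers.

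All 4 markers of granule-forming progenitors were lower in brain DCs, with a mean of 0.07 to 0.09 in brain DCs, against 2.55 to 4.66 in monocytes. Proliferation genes had 6 of 9 lower and 1 higher, with a mean of -0.26 to -0.08 in brain DCs, against 0.59 to 1.54 in monocytes. Centred values cannot show which of these markers are absent. The part of other cells, of cycling cells and of RNA quality in the respiratory chain differences was not tested.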

How the data were processed

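The deposited table held log2 values for 45101 probe sets on 5 arrays. They were made by the authors with RMA, per the submitters' processing notes. Its version and the baseline of the values are not stated in these notes, and the log base was inferred from the range. No raw scans were analysed, and levels and detection above background are lost.

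After 64 control probe sets were left out, 34945 probe sets had 1 gene symbol in the platform annotation, 932 had several and 9160 had none. Gene symbols were checked by Entrez identifier against RefSeq (0 updates). Probe sets with 1 symbol were averaged to 18193 genes and tested with limma 3.58.1 in R 4.3.3 (lmFit, eBayes, no covariate, 3 residual and 4.43 prior degrees of freedom), with Benjamini-Hochberg adjustment over all genes. The test was tried on simulated data first, with 200 changed genes among 18193. It called 0.8% of them at a log2 change of 0.5, 59.4% at 1 and 98% at 2. In the real data 6151 genes were called, so these shares need not hold there. A gene that was not called is not shown to be unchanged. Members and lists were chosen with earlier results of these data known.

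Named members were, per functional group, up to 4 called genes in each direction with the largest difference, the gene nearest to 0, and all complex II genes and Cycs. From each other list, up to 2 called genes in each direction were named. Other uncalled members are given by their difference or its range, and 5 regulators (Nrf1, Gabpa, Gabpb1, Tfam, Ppargc1a) were added after their values were seen. Promoters were read from RefSeq windows. Alternatives covered normalisation, the probe sets of a gene, a robust prior, the replicate number and single arrays left out.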

Additional observations from a re-analysis of the deposited data

How the results depend on the processing

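The count of respiratory chain genes called higher stayed within 1.5 times of 24 under median subtraction (23), quantile normalisation (26), the probe set with the highest mean (19), no _x_at or _s_at probe sets (21), a robust prior (24) and single probe sets (26). Leaving out 1 array gave 13 to 25 higher and 1 to 2 lower, with the low end of 13 without brain DC replicate 1. In those fits 12 of the 24 higher calls and 1 of the 2 lower calls held every time, and all 26 called genes kept their direction. The median of 0.48 lay between 0.44 and 0.58 with 1 array left out and became 0.61 after quantile normalisation. Over the 33 genes whose probe sets agree in direction, an alternative chosen after seeing the data, it was 0.66, with 20 higher. With the replicate block the median was 0.58, with 24 higher and 1 lower. Monocyte replicate 3 has no partner there and drops out of the comparison. Deviations of same-numbered samples correlated at 0.045 and 0.088. With 2 brain DC arrays the deviations of one mirror those of the other, so these values cannot show whether same-numbered samples are paired. With 1 probe set per gene, that of highest mean, Ndufb7 stood at -0.044 and Gabpb1 at 0.259, both opposite to their gene value and not called. On centred values the highest mean does not mark the probe set with the most signal. This setting therefore shows only that another choice of probe set changes these genes. In complex II, 0 genes were higher without _x_at and _s_at probe sets or with the probe set of highest mean, and 2 with quantile normalisation or the replicate block, instead of 1. In complex IV, 1 gene was higher instead of 2 with either of these last settings, median subtraction or the probe set of highest mean. In all genes 16.9% higher and 16.9% lower became 14.9% and 17.9% after median subtraction. The number of arrays, 2 against 3, limits what can be called, and signal over background is not known for centred values.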
